A study of Mus musculus with 30 samples.

Results

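Muscle wasting in tumour-bearing mice was examined in 4 tibialis anterior muscles from mice labelled with LLC cancer and in 4 muscles from the controls of that experiment. These 8 RNA-seq libraries, chosen by their labels and column names, are 8 of the 30 in the series, and every gene of the table was considered. LLC is the usual abbreviation of Lewis lung carcinoma, a transplantable tumour line of C57BL/6 mice, although the labels do not spell it out. All muscles of the series came from male C57BL/6J mice. The tibialis anterior is a fast-contracting muscle of the shin. The labels leave out the age of the LLC and control mice, the site, dose and duration of the tumour, and whether the controls received a sham injection. The labels call the libraries biological replicates without saying whether each is 1 mouse, so the p-values measure the spread between these samples. For comparison, the series holds 4 muscles of dexamethasone-treated mice with 4 controls of their own, and 3 muscles of old mice (24 months) with 3 of young mice (6 months). The 3 experiments share no control muscles. The remaining 8 libraries, from a Cyr61 siRNA experiment, enter only a check in which all groups were fitted together.

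A growing tumour can waste skeletal muscle at a distance, a state known as cachexia, through circulating cytokines, activins, glucocorticoids and a fall in insulin and IGF signalling. In the muscle fibre these inputs converge on FoxO transcription factors, which switch on ubiquitin ligases such as Fbxo32 (atrogin) and Trim63 (MuRF), the proteasome and autophagy. A muscle also contains connective-tissue cells, vessels, blood and immune cells, so its RNA is a mixture. In such bulk samples fewer cells of a type and less RNA per cell cannot be told apart.

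The 8 libraries held between 35875164 and 39919849 reads in genes whose values are whole reads, so a single read in a gene of 2 kb was worth about 0.0188 to 0.0224 TPM, the length-corrected share of a gene in a library whose values sum to 1000000. Transcripts encoded by mitochondrial DNA took 41.7% to 48.7% of TPM in the controls. They took 49.3%, 47.3%, 60.4% and 46.5% in LLC replicates 1 to 4. LLC replicate 3 therefore stood apart from the other libraries. The difference between groups was 4.94 percentage points (exact permutation test, two-sided, p = 0.2; the smallest p this design allows is 0.0286), and 1.77 points without LLC replicate 3. Because TPM is a share, a larger mitochondrial share lowers the value of every other gene, so each comparison was also made after rescaling without the mitochondrial genes, which moved the median gene by 0.121 log2 units. Changes are given on the log2(TPM + 1) scale relative to the median gene tested, with the standard error (SE) of the fit. This scale understates changes of genes near 1 TPM. The p-values test the change before the median gene was subtracted, which in the LLC comparison was -0.0512 as deposited and 0.0697 after rescaling. The tissue label fitted its markers: the fast myosin Myh4 stood at 9139, 9764, 9919 and 8975 TPM in control replicates 1 to 4 and at 5871, 9792, 5868 and 7766 TPM in LLC replicates 1 to 4. The slow myosin Myh7 stayed below 1 TPM in 7 of the 8 libraries, the exception being control replicate 3 at 9.18 TPM.

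Of 10830 genes tested with limma, 128 differed between LLC and control muscles at an adjusted p under 0.05 (1.18%), 32 of them higher (0.295%) and 96 lower (0.886%). An unadjusted p under 0.05 was reached by 1429 genes (13.2%). The balance of the 2 directions depended on the scaling. After rescaling, 546 of 12011 genes passed (4.55%), 422 higher (3.51%) and 124 lower (1.03%), and median-of-ratios scaling called 353 (3.27%). All 32 increases and 77 of the 96 decreases found as deposited were found again after rescaling. Leaving out LLC replicate 3 gave 345 calls (3.19%), of which 213 were higher (1.97%), and leaving it out of the rescaled table gave 632 (5.29%). Leaving out another library gave between 17 calls (without LLC replicate 1) and 164 (without LLC replicate 2). In the rescaled table, leaving out another library gave between 135 calls (without control replicate 4) and 407 (without LLC replicate 4). Among the called genes named below, Arrdc2, Fmo2, Mid1ip1, Ifitm1, Smox, Mettl21c, Cited4, Ighm and Col6a2 passed as deposited whichever library was left out, and the other called genes lost the call without at least 1 library. In the deposited values the 4 LLC libraries all lay above the 4 controls for 162 genes (1.5%) and all below them for 664 genes (6.13%). These counts were not made after rescaling, and the mitochondrial share of LLC replicate 3 lowers its other genes as deposited.

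The increased genes of highest fold were led by Arrdc2, an arrestin-domain gene on the list of glucocorticoid-responsive genes. Arrdc2 (chr8:70835129-70839720, minus strand, mm10) stood at 29.3, 12.3, 14.2 and 13.3 TPM in control replicates 1 to 4 and at 52.6, 54.5, 51.6 and 90.3 TPM in LLC replicates 1 to 4. Every LLC library lay above every control, and the increase was 1.89 (SE 0.26, adjusted p = 0.0107). The highest control was replicate 1 and the highest LLC muscle replicate 4. Cep85l, a centrosomal protein gene, rose by 1.69 (SE 0.29, adjusted p = 0.025), from 12.1, 4.56, 9.55 and 5.71 TPM to 33.997, 33.5, 16.8 and 21.5 TPM, with LLC replicate 3 the lowest of the LLC muscles.

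Fmo2 (chr1:162874317-162898726, minus strand, mm10), a flavin-containing monooxygenase that oxidises drugs and other small molecules, had the tightest separation among the leading increases. Its level was 4.37, 4.44, 4.47 and 3.63 TPM in the controls and 13.9, 13.2, 9.34 and 14.2 TPM in the LLC muscles, a rise of 1.42 (SE 0.14, adjusted p = 0.00122). Even LLC replicate 3, again the lowest, lay above all controls. Mid1ip1, a regulator of fatty acid synthesis, went from 27.6, 18.6, 26.3 and 20.1 TPM to 52.1, 55.1, 43.2 and 59.5 TPM, a rise of 1.21 (adjusted p = 0.00926). Galnt15, a glycosyltransferase of mucin-type O-glycosylation, increased by 1.08 (adjusted p = 0.0201).

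Foxo1 (chr3:52268336-52353221, plus strand, mm10), the transcription factor that drives atrophy genes when insulin signalling falls, was among the 12 leading increases. It stood at 3.02, 2.61, 2.38 and 2.34 TPM in the controls and 6.998, 8.65, 3.44 and 7.30 TPM in the LLC muscles, an increase of 1.08 (SE 0.20, adjusted p = 0.0362). The lowest LLC value, in replicate 3, was close to the highest control value. The adjusted p was 0.00082 without LLC replicate 3, and the call was lost on leaving out any other library. The other leading increases were Acss1 (mitochondrial acetyl-CoA synthesis, 0.97), the nuclear non-coding RNA Malat1 (0.93), the guanine deaminase Gda (0.92), Tbc1d4 (insulin-dependent glucose transporter traffic, 0.88), the matrix protein gene Adamtsl4 (0.86) and the sulfotransferase Sult1a1 (0.85), with adjusted p-values from 0.0168 to 0.0493.

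Osmr, the receptor subunit for oncostatin M, stood at 1.71, 1.38, 1.07 and 1.12 TPM in controls and 3.66, 4.95, 2.31 and 3.004 TPM in LLC muscles, a rise of 0.97 (SE 0.17, adjusted p = 0.0272). It was the only called gene of the 20 tested on the list of IL-6-type and acute-phase genes, on which 19 lay above the median gene and the median change was 0.45, beside 0.295% of all genes called higher. Stat3, which transmits these signals, was at 14.0, 13.2, 8.65 and 9.89 TPM against 11.4, 19.95, 8.79 and 14.5 TPM (0.25, adjusted p = 0.788). Its feedback inhibitor Socs3 was at 9.83, 2.68, 2.22 and 2.97 TPM against 3.72, 16.1, 2.71 and 6.29 TPM (0.58, adjusted p = 0.711), and the groups overlapped for both. Ifitm1, an interferon-induced membrane protein gene chosen after its values were seen, had no such overlap, with 1.17, 0.977, 0.898 and 1.37 TPM in controls and 3.49, 5.25, 4.32 and 4.98 TPM in LLC muscles (rise of 1.43, adjusted p = 0.00122).

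**Figure D1:**
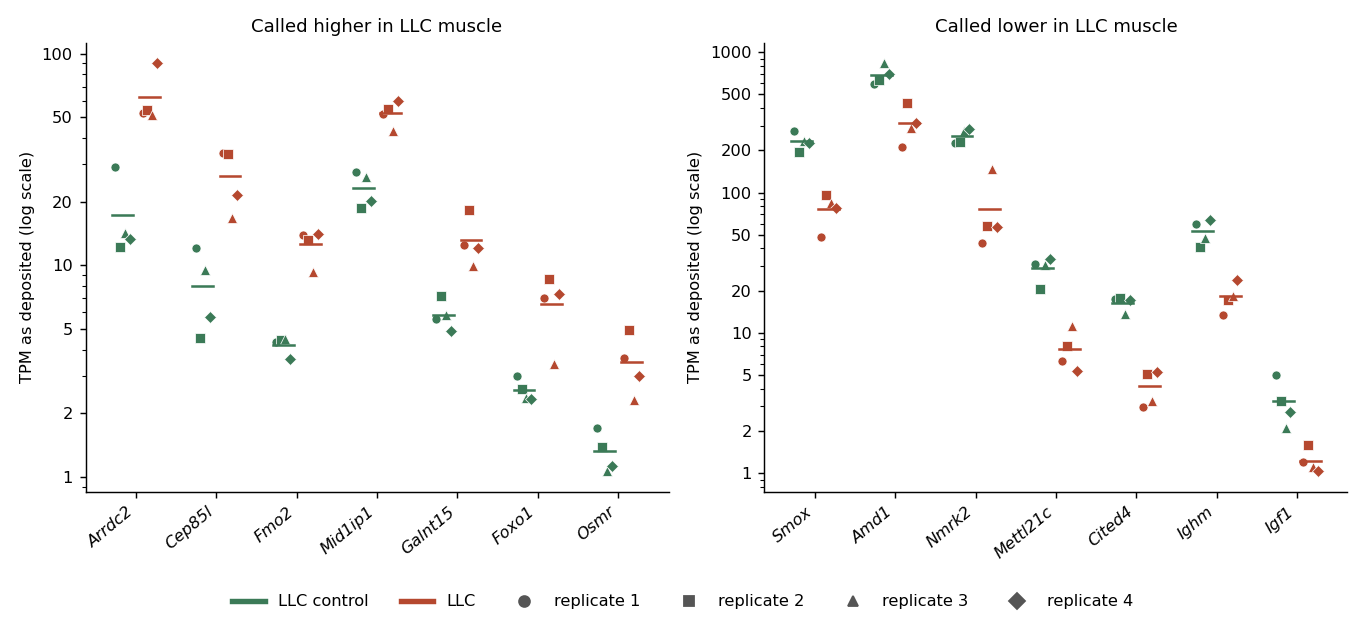
TPM on a log axis in each of the 4 control and 4 LLC muscles for the leading increased and decreased genes; marker shapes stand for replicates 1 to 4 and bars for group means. The groups do not overlap for any gene shown. LLC replicate 3 (triangle) is the LLC library nearest to the controls for every increased gene shown and, among the decreased genes shown, for Nmrk2 and Mettl21c.

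The decreased genes included abundant muscle transcripts of polyamine and NAD metabolism. Smox (chr2:131491496-131525922, plus strand, mm10), which oxidises the polyamine spermine back to spermidine, stood at 272, 193, 234 and 227 TPM in control replicates 1 to 4 and at 48.4, 96.5, 84.8 and 78.01 TPM in LLC replicates 1 to 4. It fell by 1.56 on the log2 scale (SE 0.20, adjusted p = 0.00616), and LLC replicate 3 lay within the range of the other LLC muscles. Amd1, the decarboxylase that supplies the aminopropyl groups of polyamines, was at 593, 638, 836 and 704 TPM and 209, 437, 291 and 314 TPM (-1.13, SE 0.20, adjusted p = 0.025). Reads of Amd1 may be shared with its near-identical copy Amd2. These were the 2 calls among 14 tested polyamine genes, beside 0.886% of all genes called lower, and the list's median change was -0.17. Summed over that list, polyamine transcripts reached 1469 to 1642 TPM in controls and 788 to 1165 TPM in LLC muscles.

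Nmrk2 (chr10:81198170-81202051, minus strand, mm10), a muscle kinase that makes NAD from nicotinamide riboside, had the largest decrease of the named genes. Its values were 226, 229.7, 276 and 285 TPM in the controls and 43.98, 57.3, 147 and 56.9 TPM in the LLC muscles (-1.83, SE 0.30, adjusted p = 0.0169). LLC replicate 3 lay midway between the other LLC muscles and the controls. Mettl21c, a muscle lysine methyltransferase gene, was at 30.7, 20.4, 30.5 and 33.7 TPM and 6.33, 8.05, 11.2 and 5.31 TPM (-1.74, SE 0.21, adjusted p = 0.00428). Cited4, a transcriptional coregulator known for its induction by exercise in heart, was at 17.4, 17.7, 13.6 and 17.01 TPM and 2.96, 5.10, 3.28 and 5.28 TPM (-1.73, SE 0.16, adjusted p = 0.00122). LLC replicate 3 was the highest LLC muscle for Mettl21c and lay within the others for Cited4.

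Further leading decreases were Nrep (-1.42), which acts in tissue repair and regeneration, the carbonyl reductase Cbr2 (-1.30), the dual-specificity phosphatase gene Dupd1 (-1.24) and Erdr1 (-1.48), with adjusted p-values from 0.0149 to 0.025. Erdr1 belongs to a repeated locus and its counting is uncertain. Ighm, the heavy chain of IgM, stood at 59.5, 41.1, 47.8 and 63.4 TPM in controls and 13.4, 17.2, 18.2 and 23.9 TPM in LLC muscles (-1.45, SE 0.18, adjusted p = 0.00611). Immunoglobulin constant regions can share reads, and only 2 of the 18 lymphocyte markers were abundant enough to test. Summed over those markers, LLC muscles held 19.6 to 40.7 TPM and controls 48.6 to 69.1 TPM, and Ighm made up most of that sum in each library.

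Insulin and IGF signalling genes were called in both directions. Of 24 tested, 1 passed as higher (Foxo1), beside 0.295% of all genes, and 3 as lower (Irs1, Foxo6 and Igf1), beside 0.886%. The median change was 0.04, and 0.12 without LLC replicate 3. Irs1, the docking protein that couples the insulin and IGF receptors to their kinases, was at 17.7, 11.8, 8.09 and 10.7 TPM in controls and 4.20, 5.75, 5.58 and 4.02 TPM in LLC muscles (-1.06, SE 0.20, adjusted p = 0.025). Igf1, the growth factor that maintains muscle mass, was at 4.97, 3.29, 2.10 and 2.75 TPM and 1.20, 1.59, 1.10 and 1.03 TPM (-0.85, adjusted p = 0.0357). For both genes the highest LLC value lay below the lowest control value. Foxo6 went from 5.61, 3.53, 3.91 and 4.86 TPM to 0.745, 1.35, 2.10 and 2.05 TPM (-1.07, adjusted p = 0.0215). Foxo3 and Pik3r1, the regulatory subunit of the PI3 kinase, did not pass as deposited and passed after rescaling (changes of 0.89 and 1.03, adjusted p = 0.0118 and 0.0124; as deposited 0.0806 and 0.0724; without LLC replicate 3 0.00533 and 0.00253). Pik3r1 was chosen after its values were seen.

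**Figure D2:**
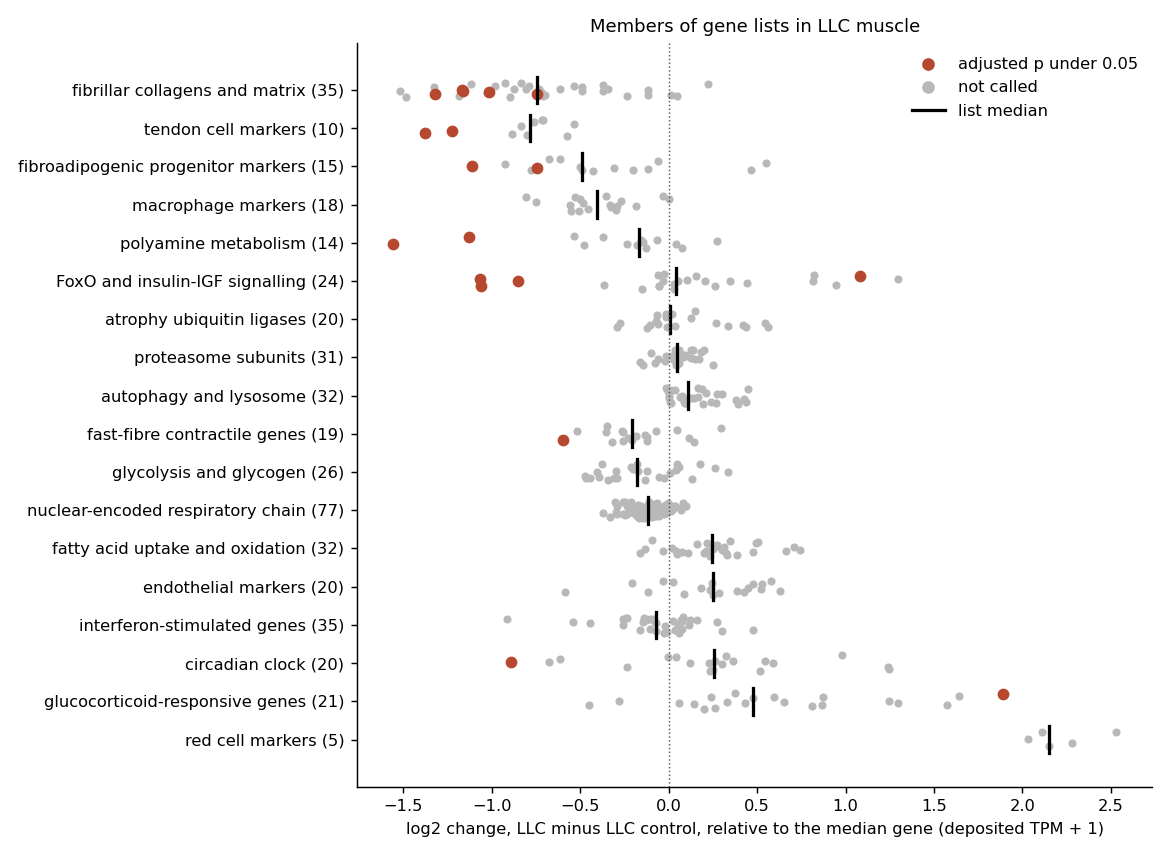
Change of each tested member of 18 gene lists in LLC muscles (log2 of deposited TPM + 1, LLC minus LLC control, relative to the median gene), with the number tested in brackets, called genes in red and the list median as a bar. Matrix, tendon and connective-tissue medians lie at -0.74, -0.78 and -0.49, and the red cell median lies at 2.15 with no member called.

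The extracellular matrix list held the most decreases of the lists tested as deposited. Of 35 tested genes of the fibrillar collagen and matrix list, 5 passed as lower and none as higher, beside 0.886% of all genes called lower, and the median change was -0.74, with 32 of the 35 below the median gene. After rescaling 7 of 37 passed as lower and none as higher. The 3 chains of collagen VI, which forms the beaded filaments around each fibre, moved together. Col6a1 stood at 29.04, 31.8, 21.98 and 27.7 TPM in controls and 14.3, 15.8, 6.50 and 10.4 TPM in LLC muscles (-1.17, SE 0.23, adjusted p = 0.0287). Col6a2, which lies beside Col6a1 on chromosome 10 (chr10:76595762-76623630, minus strand, mm10), was at 14.6, 15.3, 10.8 and 13.3 TPM and 5.49, 6.47, 2.76 and 4.28 TPM (-1.32, SE 0.19, adjusted p = 0.0107). In all 3 chains LLC replicate 3 was the lowest library, and the other 3 LLC muscles still lay below every control.

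Col6a3, the long chain of collagen VI, was at 10.4, 12.001, 7.08 and 8.80 TPM in controls and 5.04, 4.89, 2.63 and 3.71 TPM in LLC muscles (-1.02, adjusted p = 0.025). Col5a1, which nucleates collagen fibrils, was at 10.9, 13.8, 8.69 and 12.4 TPM and 5.86, 6.48, 2.21 and 3.82 TPM (-1.16, adjusted p = 0.0362). Col15a1, of the basement membrane zone, changed by -0.74 (adjusted p = 0.0471) and was not called without LLC replicate 3 (adjusted p = 0.0522). The abundant fibrillar chains, chosen after their values were seen, did not pass as deposited. Col1a1 was at 71.9, 73.03, 35.1 and 81.8 TPM and 30.5, 36.5, 9.83 and 16.8 TPM (-1.49, SE 0.37, adjusted p = 0.078), with control replicate 3 below the highest LLC muscle. Col3a1, at 73.001, 109, 49.9 and 91.1 TPM and 36.7, 45.01, 12.1 and 20.7 TPM, changed by -1.52 (adjusted p = 0.0631), and Col1a2 by -1.33 (adjusted p = 0.0544). After rescaling Col3a1 and Col1a2 passed (adjusted p = 0.0438 and 0.0357) and Col1a1 did not (0.0506).

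All 10 tested tendon cell markers lay below the median gene (median change -0.78), and 2 passed, beside 0.886% of all genes. Kera, the small proteoglycan keratocan, stood at 5.86, 6.51, 8.28 and 7.75 TPM in controls and 1.92, 1.79, 3.81 and 1.03 TPM in LLC muscles (-1.38, SE 0.22, adjusted p = 0.0149). Tnmd, the tendon membrane protein tenomodulin, was at 7.44, 5.34, 6.33 and 10.4 TPM and 2.30, 3.31, 2.89 and 1.33 TPM (-1.23, SE 0.21, adjusted p = 0.0201). No library of either group crossed over for these genes. The summed tendon markers ran from 124 to 169 TPM in controls and were 78.7, 140.02, 53.2 and 52.1 TPM in LLC replicates 1 to 4.

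Connective-tissue cells of the muscle, the fibroadipogenic progenitors, make much of this matrix. Of 15 tested markers of these cells, 2 passed as lower, Clec3b and the collagen gene Col15a1 that is on both lists, beside 0.886% of all genes, and the median change was -0.49. Without LLC replicate 3 the median was -0.30, Clec3b passed as lower and Apod, a lipid-binding protein gene named after its values were seen, as higher. Clec3b, the plasminogen-binding protein tetranectin, was at 44.5, 50.1, 41.6 and 37.1 TPM and 19.1, 29.8, 11.1 and 19.1 TPM (-1.11, SE 0.23, adjusted p = 0.0362). Summed over the markers, controls held 714 to 834 TPM and LLC replicates 1 to 4 held 613, 932, 344 and 529.8 TPM. The sum of LLC replicate 2 thus exceeded every control, while its Clec3b and Col15a1 values and its collagen VI chains lay below every control. Whether the amount of connective tissue in the sample contributed to the matrix and tendon values was not tested.

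**Figure D3:**
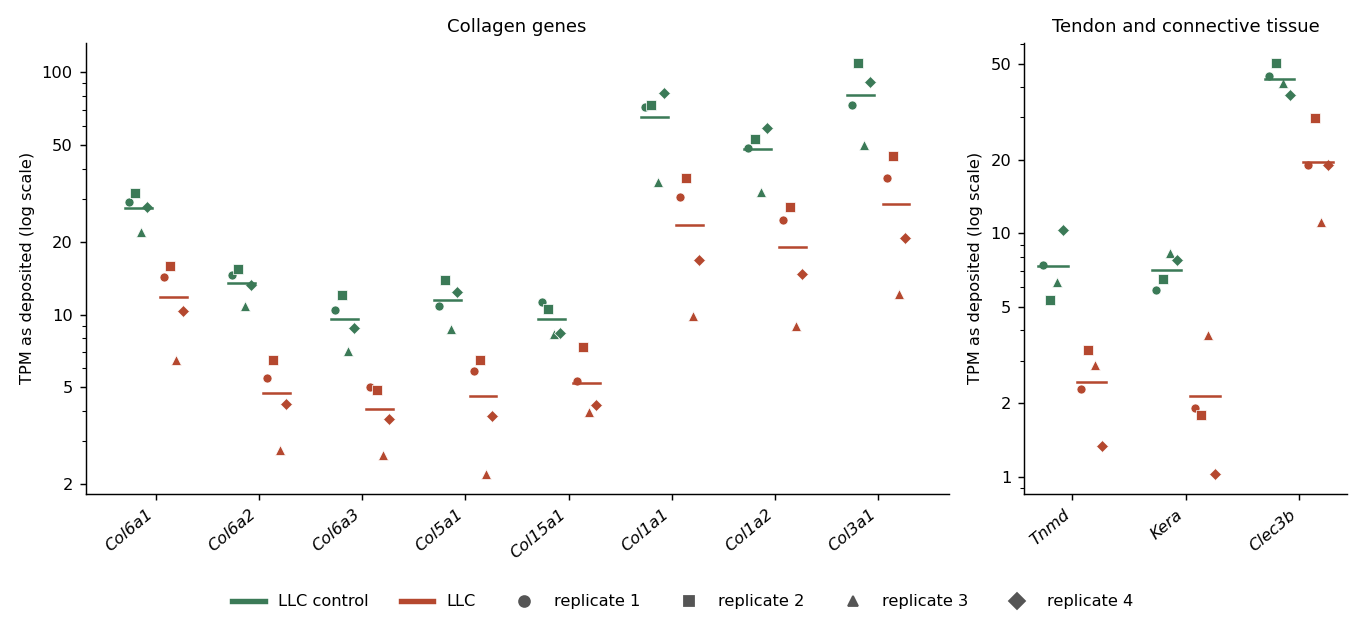
TPM on a log axis of collagen, tendon and connective-tissue genes in each control and LLC muscle, with marker shapes for replicates 1 to 4 and bars for group means. LLC replicate 3 (triangle) has the lowest value for the collagen chains, and the other 3 LLC muscles lie below all controls for the chains of collagen VI.

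Single genes of other lists were called lower. Egr1, an immediate-early transcription factor, was at 5.68, 4.21, 3.16 and 3.02 TPM in controls and 0.929, 1.43, 0.603 and 1.98 TPM in LLC muscles (-1.12, SE 0.20, adjusted p = 0.025). Relt, a receptor of the TNF receptor family, was at 13.9, 12.1, 13.2 and 11.96 TPM and 5.26, 6.52, 5.54 and 8.53 TPM (-0.85, SE 0.14, adjusted p = 0.0149). Egr1 was the call among 20 immediate-early genes, and of 14 cachexia-linked receptors Relt passed as lower and Osmr as higher. Over all genes, 0.886% were called lower and 0.295% higher. The TWEAK receptor Tnfrsf12a, known for its induction in denervated muscle, was at 76.2, 41.1, 21.5 and 38.01 TPM and 19.1, 13.1, 6.47 and 16.5 TPM. All 4 LLC muscles lay below all controls, and the change of -1.52 did not pass as deposited (SE 0.36, adjusted p = 0.0675) but did after rescaling (adjusted p = 0.0403).

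Glucocorticoids, steroid hormones of the adrenal cortex, act through a nuclear receptor that binds DNA, and raise a known set of muscle genes. Of 21 tested genes of that set, 19 lay above the median gene, the median change was 0.47, and 1 (Arrdc2) passed as higher, beside 0.295% of all genes. After rescaling 5 passed as higher (Arrdc2, Fkbp5, Glul, Klf15 and Per1) and none as lower, beside 3.51% of all genes. Fkbp5, a chaperone of the glucocorticoid receptor and a sensitive reporter of its activity, stood at 8.08, 5.97, 8.03 and 5.70 TPM in controls and 32.5, 35.7, 7.30 and 29.8 TPM in LLC muscles. In LLC replicates 1, 2 and 4 it was far above the controls, and LLC replicate 3 lay inside the control range. Its change of 1.64 (SE 0.39) did not pass as deposited (adjusted p = 0.0799), passed after rescaling (adjusted p = 0.0271) and passed without LLC replicate 3 (adjusted p = 0.000115).

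Glul, the glutamine synthetase, and Klf15, a transcription factor of amino acid breakdown, were chosen after their values were seen. Glul was at 90.5, 73.8, 51.5 and 58.3 TPM in controls and 199.9, 291, 88.4 and 275 TPM in LLC muscles (1.57, adjusted p = 0.0516; after rescaling 0.0144). Klf15 was at 14.1, 12.9, 14.6 and 15.2 TPM and 33.4, 29.7, 16.4 and 26.9 TPM (0.87, adjusted p = 0.061; after rescaling 0.00927). In both, LLC replicate 3 was the LLC library nearest to the controls. The letters ACANNNTGT, the core of the glucocorticoid response element searched on both strands, were found in 4 of the 27 promoter windows of the 17 glucocorticoid-list genes that matched the RefSeq table (14.8%), and in 6.85% of all promoter windows. The 4 windows belong to 3 genes.

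The circadian clock of muscle is a feedback loop in which Arntl (BMAL) and its partner bind E-box letters CACGTG and switch on Per, Cry and Ciart genes, whose products then repress them. Of 20 tested clock genes, 15 lay above the median gene, none passed as higher and 1 (Bhlhe41) passed as lower, beside 0.886% of all genes. After rescaling 8 passed as higher, beside 3.51% of all genes, and 1 as lower, beside 1.03%. Bhlhe41, a repressor that acts through E-boxes, was at 15.1, 12.5, 18.4 and 18.1 TPM in controls and 6.75, 7.82, 8.33 and 8.33 TPM in LLC muscles (-0.89, SE 0.14, adjusted p = 0.0114), the groups being well separated. The activator Arntl was at 8.10, 11.3, 8.63 and 8.63 TPM and 7.42, 6.33, 3.28 and 4.18 TPM (-0.68, adjusted p = 0.111). The labels do not give the hour of collection.

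The Per genes, Ciart, Cry2 and Arntl were chosen after their values were seen. Per1 stood at 15.8, 6.10, 6.31 and 10.7 TPM in controls and 19.5, 25.1, 15.2 and 31.2 TPM in LLC muscles (1.25, SE 0.28, adjusted p = 0.0734; after rescaling 0.02). Control replicate 1, the highest control, lay just above LLC replicate 3. Per2 was at 4.06, 1.85, 2.10 and 2.24 TPM and 4.42, 5.70, 4.75 and 8.15 TPM (0.98, adjusted p = 0.0516; after rescaling 0.016). Ciart, a repressor of the clock, was at 3.72, 1.25, 2.55 and 4.62 TPM and 6.10, 8.11, 6.56 and 10.7 TPM (1.24, adjusted p = 0.0502; after rescaling 0.0251). For Per2 and Ciart no LLC library fell among the controls. Per3 and Cry2 changed by 0.59 and 0.54 and passed after rescaling (adjusted p = 0.0334 and 0.00992). Per1 is also on the glucocorticoid list.

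Promoters of 3 clock genes that moved in opposite directions are shown, since each has a window with the E-box letters. They were chosen for these letters. The windows run from 250 bases before to 50 bases after the annotated start (RefSeq, GRCm38.p6), 5′ to 3′ on the gene's strand, with each CACGTG in capitals. Per1 (chr11:69098699-69098998, plus strand) has 1 E-box, whose first base lies 166 bases before the start. Ciart (chr3:95882179-95882478, minus strand) has 3, at 116, 58 and 44 bases before the start. Bhlhe41 (chr6:145865371-145865670, minus strand) has 1, at 153 bases before the start.
Per1: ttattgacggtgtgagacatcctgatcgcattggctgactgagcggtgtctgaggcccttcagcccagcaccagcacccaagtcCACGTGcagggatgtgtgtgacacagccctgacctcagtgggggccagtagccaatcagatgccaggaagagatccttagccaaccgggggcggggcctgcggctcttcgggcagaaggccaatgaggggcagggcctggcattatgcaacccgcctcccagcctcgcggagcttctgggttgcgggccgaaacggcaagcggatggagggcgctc
Ciart: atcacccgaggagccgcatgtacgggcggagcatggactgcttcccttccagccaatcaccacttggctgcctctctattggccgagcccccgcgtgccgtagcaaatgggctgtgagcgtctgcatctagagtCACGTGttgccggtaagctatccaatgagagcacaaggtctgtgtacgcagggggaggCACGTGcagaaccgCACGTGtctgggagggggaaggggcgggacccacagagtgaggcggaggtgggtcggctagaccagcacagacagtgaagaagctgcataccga
Bhlhe41: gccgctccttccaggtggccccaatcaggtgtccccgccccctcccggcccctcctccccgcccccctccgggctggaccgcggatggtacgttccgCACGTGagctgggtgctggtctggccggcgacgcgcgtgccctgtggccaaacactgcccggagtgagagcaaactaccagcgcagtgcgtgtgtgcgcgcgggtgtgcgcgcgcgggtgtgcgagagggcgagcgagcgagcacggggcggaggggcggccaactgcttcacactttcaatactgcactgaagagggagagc
E-box letters CACGTG, which read the same on both strands, were present in 6 of the 25 windows of the 17 clock genes that matched the table (24.0%), and in 7.15% of all promoter windows. The 6 windows belong to 5 genes. The share was 18.5% for the glucocorticoid list, 14.1% for genes called lower as deposited and 6.45% for genes called higher. Neighbouring windows of a gene can overlap. Per1 has another annotated window without these letters, and the windows of Per3 and Cry2 hold none. Per1 and Ciart, higher in LLC muscles, and Bhlhe41, lower, share these letters because they were chosen for them. Cry1 and Tef also have windows with these letters (changes of 0.25 and 0.30 as deposited, adjusted p after rescaling 0.0654 and 0.0251). A match is a description of the sequence and shows no binding.

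**Figure D4:**
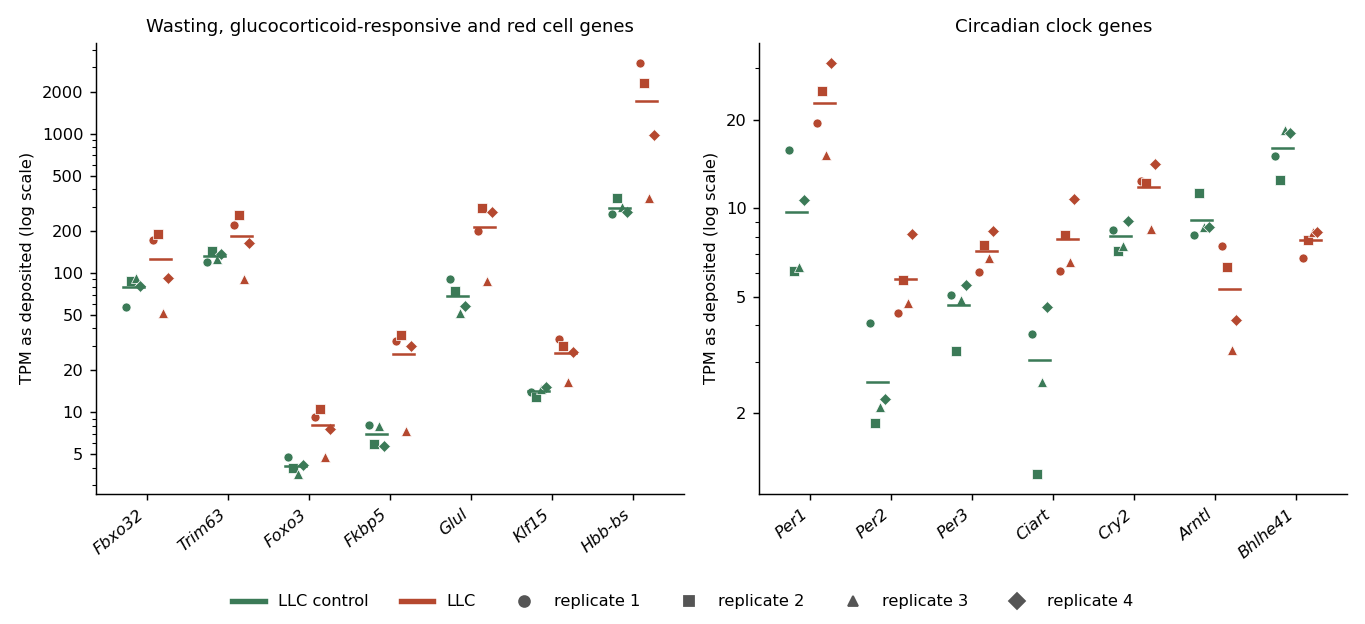
TPM on a log axis of wasting, glucocorticoid-responsive, red cell and clock genes in each control and LLC muscle, with marker shapes for replicates 1 to 4 and bars for group means. LLC replicate 3 (triangle) lies within or below the control range for Fbxo32, Trim63 and Fkbp5, and the LLC muscles lie above the controls for Per2 and Ciart and below them for Bhlhe41.

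Genes of muscle protein breakdown did not pass as a group. None of the 20 tested atrophy ubiquitin ligases was called as deposited or after rescaling. Fbxo32 was at 57.5, 87.9, 91.8 and 80.7 TPM in controls and 172, 189, 51.5 and 92.4 TPM in LLC muscles (0.56, SE 0.35, adjusted p = 0.596). LLC replicates 1 and 2 were above every control, replicate 4 was just above the highest control and replicate 3 was below the lowest. Trim63 was at 121, 144, 127 and 138 TPM and 223, 263, 91.1 and 166 TPM (0.43, SE 0.27, adjusted p = 0.606). Without LLC replicate 3 Trim63 passed (adjusted p = 0.043) together with Fbxo31, a ligase subunit named after its values were seen, beside 1.97% of all genes, and Fbxo32 did not (adjusted p = 0.0916).

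Proteasome subunits, the core of the protein-degrading machine, gave no call among 31 tested, with 24 above the median gene and a median change of 0.05 (0.12 without LLC replicate 3). Autophagy and lysosome genes gave no call among 32, with 30 above the median gene and a median of 0.11 (0.19 without LLC replicate 3), and 3 passed as higher after rescaling, the mitophagy receptors Bnip3 and Bnip3l and the lipid kinase Pik3c3, named after their values were seen, beside 3.51% of all genes. Mstn, the growth inhibitor myostatin, was at 11.9, 13.2, 16.4 and 12.4 TPM in controls and 17.05, 18.7, 9.52 and 27.2 TPM in LLC muscles (0.38, adjusted p = 0.64), and 22 tested genes of myostatin, activin and BMP signalling held no call. Gadd45a, a stress gene of denervated and wasting muscle, was at 19.7, 32.5, 14.1 and 18.9 TPM and 33.5, 33.6, 22.5 and 38.3 TPM (0.65, adjusted p = 0.274). Eda2r, a receptor of the TNF receptor family linked to cachexia, changed by 0.20 (adjusted p = 0.903), and Cyr61, the matricellular gene targeted elsewhere in the series, by 0.38 (adjusted p = 0.701). For Mstn, Gadd45a, Eda2r and Cyr61 the groups overlapped.

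Transcripts of blood cells differed in level between LLC muscles. Hbb-bs, an adult beta-globin chain, was at 267, 345, 297 and 274 TPM in controls and 3217, 2318, 346 and 984 TPM in LLC muscles (2.15, SE 0.53, adjusted p = 0.0909). LLC replicates 1, 2 and 4 were severalfold above the controls, and replicate 3 was at the highest control value. Alas2, the haem-synthesis enzyme of red cell precursors, chosen after its values were seen, was at 1.39, 2.88, 2.01 and 1.76 TPM and 32.95, 30.2, 2.87 and 8.15 TPM (2.28, adjusted p = 0.087). All 5 tested red cell markers lay above the median gene (median change 2.15). None passed as deposited, 3 passed as higher after rescaling (Hbb-bs, Hbb-bt and Alas2), beside 3.51% of all genes, and all 5 without LLC replicate 3, beside 1.97%. Globin copies are near-identical and their reads can be split between them. Summed red cell markers ran from 623 to 793 TPM in controls and were 7815, 6094, 717 and 2159 TPM in LLC replicates 1 to 4, and the part of residual blood in the other results was not tested.

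Neutrophil transcripts were present in all LLC muscles. Csf3r, the receptor of the growth factor for neutrophils, stood at 0.560, 0.735, 0.240 and 0.484 TPM in controls and 1.85, 3.13, 1.10 and 1.75 TPM in LLC muscles. The chemokine receptor Cxcr2, chosen after its values were seen, was at 0.0271, 0.196, 0.0129 and 0 TPM and 0.805, 0.897, 0.628 and 0.699 TPM. Csf3r reached the filter through the LLC muscles alone, and Cxcr2 likewise and in the rescaled table alone, so their groups are described without a test. The calprotectin subunit S100a9, chosen likewise, was at 3.32, 57.7, 0.678 and 0.311 TPM and 53.3, 61.3, 22.4 and 40.8 TPM (3.18, SE 0.94, adjusted p = 0.146). Control replicate 2 held as much S100a9 as the LLC muscles, and it also had the highest control value for Cxcr2.

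Of 18 tested macrophage markers none passed, 17 lay below the median gene and the median change was -0.40. Without LLC replicate 3 the median was -0.08. Lyz2, the macrophage lysozyme, was at 137, 256, 113 and 153 TPM in controls and 123, 147, 31.4 and 97.002 TPM in LLC muscles (-0.81, adjusted p = 0.41), with LLC replicate 3 the lowest. Endothelial markers held no call among 20 as deposited and 8 higher after rescaling, beside 3.51% of all genes, with 16 above the median gene. Aqp1, the water channel of capillaries and red cells, was at 263, 210.2, 208 and 192 TPM and 283, 329.6, 299.9 and 298 TPM (0.53, adjusted p = 0.112; after rescaling 0.0207). Of 35 interferon-stimulated genes none passed in either scaling, and the median change was -0.07.

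Few contractile and fuel genes passed. Of 19 fast-fibre genes 1 passed, as lower, beside 0.886% of all genes called lower. This was Myl1, the fast myosin light chain, at 8660.0, 8759, 8438 and 8218 TPM in controls and 5659, 5331, 5127 and 5635 TPM in LLC muscles (-0.60, SE 0.11, adjusted p = 0.0201). The groups were far apart, but the call was lost after rescaling (adjusted p = 0.0577). Summed over the list as deposited, fast-fibre transcripts took 165090 to 175710 TPM in controls and 111290 to 161930 TPM in LLC muscles. The lowest sum was that of LLC replicate 3, whose mitochondrial share was 60.4%. These sums fall as the mitochondrial share rises and were not rescaled, so their separation may not hold after rescaling. The list's median change was -0.21 as deposited and -0.18 after rescaling. The fast myosins Myh4, Myh1 and Myh2 changed by -0.35, -0.07 and 0.30 (adjusted p = 0.324, 0.925 and 0.868), and 17 tested slow-fibre genes gave no call.

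Glycolysis genes gave no call among 26, although 8 of them had all LLC muscles below all controls as deposited, beside 6.13% of all genes. Eno3, the muscle enolase, was at 7373, 6116, 6264 and 6003 TPM in controls and 4396, 4775, 4640.0 and 4132 TPM in LLC muscles (-0.47, SE 0.12, adjusted p = 0.0666). Fatty acid uptake and oxidation genes gave no call among 32, with 28 above the median gene (median change 0.24), and 6 passed as higher after rescaling, beside 3.51% of all genes. Cd36, the fatty acid transporter, chosen after its values were seen, was at 123, 110.3, 109.6 and 92.7 TPM and 211, 193, 167 and 139.8 TPM (0.74, adjusted p = 0.0533; after rescaling 0.0195). Pdk4, which blocks pyruvate oxidation, was at 385, 273, 208 and 338 TPM and 319, 637, 407 and 149.6 TPM, with overlapping groups (0.24, adjusted p = 0.9). Ppargc1b, a coactivator of mitochondrial genes, passed as lower (-0.82, adjusted p = 0.0201), while 77 nuclear-encoded respiratory chain genes gave no call (median change -0.12). Cytosolic ribosomal protein genes gave no call among 51.

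Cth, the enzyme that makes cysteine from cystathionine, stood at 0.621, 0.689, 0.704 and 0.728 TPM in controls and 2.23, 1.398, 1.32 and 1.997 TPM in LLC muscles. It reached the filter through the LLC muscles alone, so its values are given without a test. C7, a terminal complement component, was the call among 18 complement genes, beside 0.886% of all genes called lower. C7 was at 1.77, 1.75, 2.10 and 1.54 TPM in controls and 0.992, 1.18, 0.457 and 0.741 TPM in LLC muscles (-0.56, adjusted p = 0.0496).

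The LLC response was then set against that of dexamethasone, a synthetic glucocorticoid, each measured against its own controls. The difference of the responses passed for 3416 of 12392 genes as deposited (27.6%). Since dexamethasone muscles had a lower mitochondrial share (34.0% to 41.5%) than their controls (46.3% to 50.7%), the rescaled table is used here. It gave 761 of 13484 genes (5.64%), 326 with the higher LLC response (2.42%) and 435 with the lower (3.23%). Agent and experiment cannot be told apart in this difference.

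Interferon-stimulated and antigen-presentation genes parted the responses. Of 38 tested interferon-stimulated genes, 24 had a higher LLC response and none a lower one, beside 2.42% of all genes. Their median change in the rescaled table was -0.04 in LLC muscles and -1.19 in dexamethasone muscles. MHC class I genes had a higher LLC response in 7 of 12 and MHC class II genes in 5 of 7. The class I medians were -0.08 in LLC muscles and -0.98 in dexamethasone muscles. The class II medians were -0.54 and -2.30, so class II genes lay below the median gene in each response and differed in size. In LLC muscles no class II gene was called. Iigp1, an interferon-induced GTPase, was at 5.64, 5.25, 4.92 and 4.02 TPM in LLC controls and 2.76, 4.63, 4.43 and 5.97 TPM in LLC muscles. In the other experiment it was at 71.3, 38.1, 19.5 and 17.5 TPM in controls and 2.15, 3.80, 4.51 and 3.25 TPM with dexamethasone, a difference of responses of 3.26 (adjusted p = 0.00253). The LLC values overlapped their controls, and the dexamethasone values lay below all of theirs. Cd74, the MHC class II chaperone, fell from 303, 205, 331 and 234 TPM to 71.2, 49.95, 79.03 and 78.7 TPM with dexamethasone, and its LLC groups overlapped (difference 1.69, adjusted p = 0.0199).

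Macrophage genes differed the other way. Of 21 tested, 7 had a lower LLC response and none a higher one, beside 3.23% of all genes. Their median change was -0.38 in LLC muscles and 0.69 in dexamethasone muscles. Lyz2 rose with dexamethasone from 262, 209, 315 and 171 TPM to 1294, 894, 2034 and 799 TPM (difference of responses -2.75, adjusted p = 0.00234). Spp1, the secreted phosphoprotein osteopontin, went from 28.3, 14.3, 21.6 and 13.4 TPM to 534, 446, 904 and 241 TPM with dexamethasone, against 4.48, 11.1, 4.55 and 13.9 TPM in LLC controls and 6.90, 2.01, 1.48 and 4.15 TPM in LLC muscles (-5.38, adjusted p = 4.46e-05). Lcn2, the acute-phase siderophore binder lipocalin, went from 0.562, 0.598, 0.906 and 0.547 TPM to 77.04, 136, 114 and 98.8 TPM with dexamethasone and stayed under 3 TPM in all LLC-experiment muscles (-5.44, adjusted p = 1.27e-07).

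**Figure D5:**
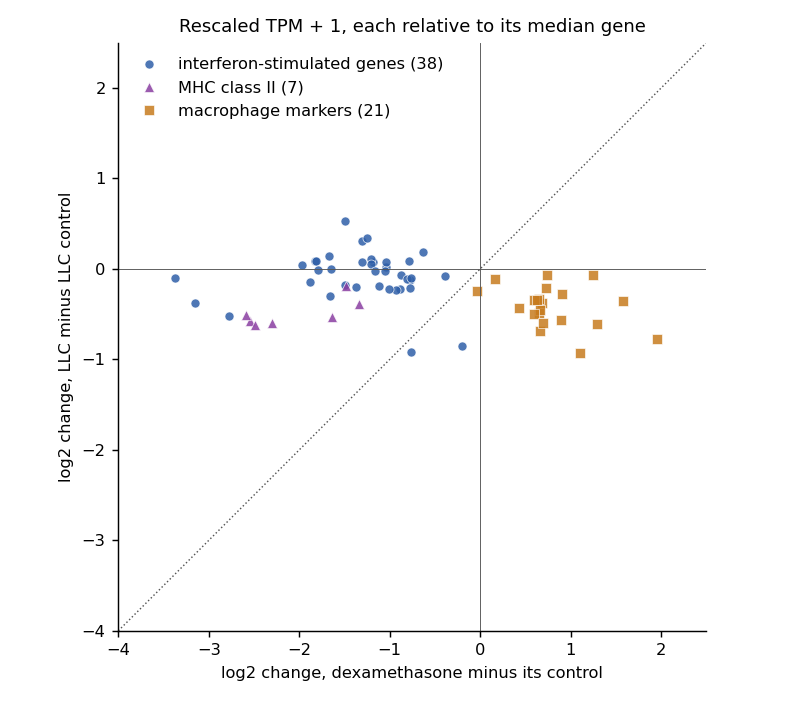
Change with dexamethasone (horizontal axis) and in LLC muscles (vertical axis) of interferon-stimulated, MHC class II and macrophage genes, both as log2 of rescaled TPM + 1 against their own controls and relative to the median gene. Interferon-stimulated genes lie left of 0 on the dexamethasone axis and mostly near 0 on the LLC axis, and macrophage markers lie mostly right of 0 on the dexamethasone axis and below 0 on the LLC axis. MHC class II genes lie below 0 on each axis.

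Other genes with the widest differences included Pnmt, which makes adrenaline (-3.69), and the matrix glycoprotein gene Tnc (-3.15), both with the lower LLC response. Retnla, a gene of alternatively activated macrophages, had the higher one (5.49). In LLC muscles it was at 11.7, 20.8, 3.20 and 4.66 TPM beside 7.86, 19.9, 9.79 and 25.1 TPM in their controls, and dexamethasone took it from 255, 113, 183 and 115 TPM to 3.93, 0.988, 1.34 and 3.13 TPM. Its relative Retnlg (5.63), the light chain Igkc (4.82) and the chemokine gene Ccl8 (3.23) had higher LLC responses as well. As deposited, Retnlg, Igkc and Ccl8 were not called in LLC muscles (1.53, 1.07 and 0.39, adjusted p = 0.162, 0.451 and 0.847). With dexamethasone they fell against its own controls (-3.42, -3.13 and -2.80 relative to the median gene). Igkc was at 1.24, 1.01, 0.776 and 12.6 TPM in LLC replicates 1 to 4, so its LLC mean rests on replicate 4. The acute-phase gene Orm1 (-3.77) and Col6a5 (3.49) were under 1 TPM in all 8 muscles of the LLC experiment. Orm1 reached the filter through the dexamethasone muscles alone (mean 16.6 TPM). Col6a5 reached it through the dexamethasone controls alone (mean 7.05 TPM). The differences of these genes are therefore a description, without a test.

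Matrix genes also parted the responses: of 38 tested, 9 had the lower LLC response, beside 3.23% of all genes, and 2 the higher. Col6a3 went from 25.4, 19.2, 33.3 and 25.98 TPM to 37.6, 71.1, 82.3 and 41.8 TPM with dexamethasone and was lower in LLC muscles (difference -1.82, adjusted p = 0.00102). Differences for Col5a1, Col1a1 and Col1a2 were -1.95, -2.07 and -1.52 (adjusted p = 0.00253, 0.0114 and 0.0223). Tnfrsf12a differed by -2.10 (adjusted p = 0.0171) and Egr1 by -1.86 (adjusted p = 0.00225). All 6 tested red cell markers and 6 of 20 endothelial markers had the higher LLC response, beside 2.42% of all genes.

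Among the LLC-increased genes, Fmo2, Foxo1 and Osmr had higher responses to LLC than to dexamethasone (1.06, 1.06 and 1.12, adjusted p = 0.00112, 0.00546 and 0.00631). Sult1a1 differed by 1.63 (adjusted p = 8.15e-06). For Arrdc2 the difference was 2.19 without passing (adjusted p = 0.116), and for Fkbp5 it was 0.64 (adjusted p = 0.496). In the deposited values, dexamethasone against its own controls changed Fkbp5 by 1.04 relative to the median gene (adjusted p = 0.00457) and Glul by 0.45 (adjusted p = 0.00816). Arrdc2, Klf15 and Per1 were not called there (-0.21, -0.13 and -0.21, adjusted p = 0.887, 0.443 and 0.835). These p-values test the change before the median gene was subtracted. Before that subtraction, the means of Arrdc2, Klf15 and Per1 were 20.6, 19.7 and 14.8 TPM with dexamethasone. In its controls they were 14.0, 16.1 and 13.1 TPM. For the decreased genes Nrep, Kera, Tnmd and Ighm the differences lay between 0.09 and 0.28 with adjusted p-values from 0.834 to 0.944, and each also fell with dexamethasone. In that experiment Ighm went from 43.2, 28.5, 37.7 and 53.03 TPM to 11.3, 23.1, 16.5 and 18.8 TPM.

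Against old age few genes differed. The difference of the LLC response and the response to old age passed for 6 of 12392 genes as deposited (0.0484%) and for 17 of 13484 after rescaling (0.126%). Ighm, lower in LLC muscles and higher in old than in young muscles (means 59.1 and 25.1 TPM), had a difference of -2.49 (adjusted p = 0.000496). Cited4 had one of -1.81 (adjusted p = 0.00508). Mid1ip1 and Fmo2 had higher LLC responses (1.86 and 1.14, adjusted p = 0.00512 and 0.0106) after rescaling. Scgb3a1, a secreted secretoglobin gene chosen after its values were seen, was at 0.276, 0.214, 0.197 and 0.136 TPM in LLC controls and 3.39, 2.47, 1.51 and 3.15 TPM in LLC muscles. It reached the filter through the LLC muscles alone and is described without a test. The age groups hold 3 muscles each, and a p that misses the threshold does not show that the responses were alike.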

How the data were processed

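RNA of 30 tibialis anterior muscles was extracted with Trizol, made into stranded poly(A) libraries (TruSeq) and run on a NovaSeq sequencer, per the labels' protocols. The deposited table holds TPM values, made by the authors, for 47643 genes. The genome build is mm10 per the submitters' processing notes, while no label names an aligner, counter or annotation. Columns were matched to samples by name. TPM keeps no depth, but in 73.0% of 20231 genes checked, values were whole reads (tolerance 0.05 of a read), which gave the read totals. Gene positions are from GENCODE on GRCm38 (mm10) and promoters from RefSeq.

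Genes of at least 1 TPM in at least 4 libraries were tested as log2(TPM + 1) with limma 3.58.1 (variance trend, R 4.3.3), on the 8 LLC-experiment libraries, with Benjamini-Hochberg adjustment over all genes tested and a two-sided threshold of 0.05. Differences of responses were interaction terms over 22 libraries, with the filter at 3 libraries. Values were rescaled to 1000000 TPM without the 37 mitochondrial genes as an alternative. Replicate numbers do not pair the samples by any label.

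Named genes were up to 12 increases and 12 decreases of largest change among called genes without overlap of libraries and with 5 TPM or more on average in the higher group, a fixed set of wasting genes, up to 6 called members of each gene list in each direction (else up to 2 of highest TPM), and up to 6 genes in each direction of each interaction. The comparison, lists and tests were chosen with earlier results of these data known. Other scalings, filters, offsets, variance options and left-out libraries were tried.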

Additional observations from a re-analysis of the deposited data

Results flagged for a closer look

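In 14 of 190 groups of 4 libraries of the genes named (7.4%, with 5% expected by chance), 1 library lay far from the other 3. In the controls, replicate 1 was high for Arrdc2 (29.3 TPM), Myh1 (4703 TPM) and Socs3 (9.83 TPM). Control replicate 2 was high for Arntl (11.3 TPM) and for S100a9 (57.7 TPM), Cxcr2 (0.196 TPM), Lcn2 (1.91 TPM) and Retnlg (3.52 TPM), genes expressed by neutrophils or induced in inflammation. Control replicate 3 was low for Cited4 (13.6 TPM) and high for the slow myosin Myh7 (9.18 TPM), and control replicate 4 was low for Fmo2 (3.63 TPM). Among LLC muscles, replicate 3 was high for Nmrk2 (147 TPM), and replicate 4 for Arrdc2 (90.3 TPM) and the light chain Igkc (12.6 TPM).

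Several genes had different responses to LLC and to dexamethasone in the test of the difference itself (limma, as deposited and after rescaling). The values here are as deposited, relative to the median gene. The LLC response was the higher for Retnla (5.28), Retnlg (4.94), Igkc (4.19), Ccl8 (3.18), Iigp1 (3.10), Col6a5 (3.08) and Cd74 (1.62), for the red cell genes Alas2 (2.41), Hbb-bs (2.40) and Hba-a2 (2.28), and for Scgb3a1 (1.98), Sult1a1 (1.54), Ifitm1 (1.28), Aqp1 (1.13), Fmo2 (0.97) and Cth (0.94). It was the lower for Spp1 (-5.29), Lcn2 (-5.11), Pnmt (-3.52), Orm1 (-3.10), Tnc (-2.86), Lyz2 (-2.81), Tnfrsf12a (-2.12), Egr1 (-1.57) and Bhlhe41 (-0.81), and for the collagens Col1a1 (-2.11), Col5a1 (-1.90), Col6a3 (-1.78) and Col1a2 (-1.56). Against old age, the response differed for Ighm (-2.51), Cited4 (-1.74) and Scgb3a1 (1.97). Scgb3a1 and Cth reached 1 TPM in the LLC experiment in the LLC muscles alone, so their differences are a description. Orm1 and Col6a5 stayed under 1 TPM in all muscles of that experiment, so their differences are a description as well.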

How the results depend on the processing

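The count of 128 genes called between LLC and control muscles was 120 and 125 with offsets of 0.1 and 0.5, 134 with robust variances and 100 with all groups in 1 fit. It was 11 at an adjusted p under 0.01, 38 with a log2 change of at least 1 as well, 8 with no filter, 81 with a filter of 5 TPM, 353 with median-of-ratios scaling, 546 after rescaling, 632 after rescaling and without LLC replicate 3, and 524 with array weights. Leaving out 1 library each gave 17 to 345, and after rescaling 135 to 632 (407 without LLC replicate 4, 323 without control replicate 1, 250 without LLC replicate 1 and 268 without LLC replicate 2). The difference in mitochondrial share was 1.77 to 6.42 percentage points. For the dexamethasone difference (3416 genes), counts were 806 and 618 with the stricter thresholds, 761 after rescaling, 763 with median-of-ratios and 1700 to 6808 with 1 library left out. For old age (6 genes) they were 14 and 10 with the offsets, 14 with no filter, 2 with a filter of 5 TPM, 17 after rescaling, 28 with median-of-ratios, 10 with robust variances and 4 to 42 with 1 library left out. Each cause was not tested.

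With a replicate block, the counts were 502 for LLC, 3454 for dexamethasone and 30 for old age. Same-numbered LLC and control libraries correlated at 0.0716, 0.121, 0.374 and 0.0408 in their deviations from the group means. No label pairs them, and whether same-numbered libraries belong together was not tested. LLC replicates 1, 2 and 3 correlated best with the control of their own number and LLC replicate 4 with control replicate 2 (0.188).

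Of 90 genes named and tested, 72 kept their side of the threshold and direction after rescaling, 17 passed newly and 1 (Myl1) no longer passed. The genes that changed sign were not called as deposited. With array weights, Myh1 had 0.0707, Pdk4 -0.0206 and Myog 0.0502, and Myog had 0.1497 after rescaling and without LLC replicate 3. With 1 library left out as deposited, Myh1 ranged from -0.3557 to 0.1913, Pdk4 from -0.0293 to 0.6597, Myog from -0.6678 to 0.2298, Eda2r from -0.0126 to 0.4295 and Iigp1 from -0.1972 to 0.0593. The same after rescaling gave ranges of -0.327 to 0.2226 for Myh1 (0.1365 without control replicate 1, 0.0199 without LLC replicate 2), -0.7122 to 0.244 for Myog (0.1649 without LLC replicate 2), -0.0192 to 0.4671 for Eda2r, -0.2151 to 0.0734 for Iigp1 and -0.0667 to 0.9426 for Ccl8. Near the worth of 3 reads (0.0563 to 0.0673 TPM in a gene of 2 kb), as for Cxcr2 in controls and Col6a5, counting error limits the values.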

Other observations

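Genes of muscle fibre formation and of the embryonic contractile programme varied between muscles of the same group. Myh3, the embryonic myosin, stood at 1.78, 33.9, 0.811 and 13.3 TPM in the controls and 26.5, 0.511, 0.291 and 19.8 TPM in the LLC muscles. Tmem8c, the fusion protein myomaker, was at 0.928, 15.2, 0.520 and 9.41 TPM in the controls and 8.48, 0.237, 0.0248 and 10.9 TPM in the LLC muscles, and Gm7325, its partner in fusion, at 0.241, 3.21, 0.191 and 1.58 TPM in the controls and 1.74, 0.0437, 0.110 and 2.03 TPM in the LLC muscles. Myh8, the perinatal myosin, was at 0.641, 7.69, 0.387 and 2.76 TPM in the controls and 5.36, 0.259, 0.242 and 5.83 TPM in the LLC muscles. Chrng, the fetal subunit of the acetylcholine receptor, was at 0.129, 4.28, 0.0755 and 1.49 TPM in the controls and 1.53, 0.0215, 0.00902 and 2.29 TPM in the LLC muscles, and Myog at 8.83, 22.5, 2.47 and 11.4 TPM in the controls and 13.1, 3.63, 2.79 and 20.1 TPM in the LLC muscles. In each of these genes the highest libraries were control replicates 2 and 4 and LLC replicates 1 and 4. The other libraries of both groups were low, except that Myog in control replicate 1 (8.83 TPM) lay near control replicate 4 (11.4 TPM). These genes were chosen after their values were seen and were not compared between groups.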
